A study of Homo sapiens with 12 samples.

Results

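Daoy cells, an established human medulloblastoma (MB) line, were compared after 3 passages (P3) of 48 h each in astrocyte conditioned media (ACM) or in control DMEM. The 3 P3 ACM and 3 P3 DMEM arrays were chosen by the labels of their scanner files, and they are 6 of the 12 single-colour arrays of the study. Cells of both groups were detached with trypsin at each passage and reseeded in their own medium. The control DMEM held 10% fetal bovine serum and an antibiotic-antimycotic, and the astrocytes that conditioned the ACM had also grown in DMEM with serum. The ACM came from primary hippocampal astrocytes of newborn Sprague Dawley rats, so the comparison shows what human tumour cells did in rat-conditioned medium, without contact with the astrocytes. Total RNA was labelled with Cy3 and hybridised to Agilent arrays, and the 6 arrays made after 1 passage (P1) are used here only where a value needs it. Of 27708 genes on the array, 20587 were tested, each through a probe that was well above background on all 6 arrays.

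Astrocytes shape the surroundings of brain tumours by secreting growth factors, cytokines, lipoproteins and matrix proteins. Cells that take up cholesterol from lipoproteins lower the activity of the SREBP factors, which switch on sterol synthesis and uptake. Cells that sense interferon or foreign nucleic acid switch on a shared set of antiviral genes through the STAT and IRF factors. Shortage of amino acids or stress in the endoplasmic reticulum acts through the factor ATF4. These systems, together with cell adhesion, matrix and inflammatory genes, were followed as gene lists.

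The labels and the layout of the arrays limit every comparison at P3. P3 ACM 1 lay on slide 1 with the 3 P1 ACM arrays, P3 ACM 2 and 3 lay on slide 2 with P1 DMEM 1 and 2, and all 3 P3 DMEM arrays lay on slide 3 with P1 DMEM 3. No slide held both media at P3, so slide and medium cannot be told apart among these 6 arrays. The labels of the deposited value table also conflict with those of the scanner files. Each of its 12 columns ranks as the array of another sample, with Spearman correlations of at least 0.99997, against 0.953 to 0.992 with the array of its own label. Its P3 ACM columns rank as the arrays labelled P3 ACM 2, P3 DMEM 3 and P3 DMEM 2, and its P3 DMEM columns rank as the 3 P1 ACM arrays. The labels of the scanner files were followed here, and values under the labels of the table are given for the named genes and the main lists whose direction they turn. The median intensity was 322.4 to 539.7 on the ACM arrays and 284.1 to 314.2 on the DMEM arrays. The share of probes well above background was 92.5% on P3 ACM 1, 75.2% and 78.9% on P3 ACM 2 and 3, and 88.1% to 91.0% on the DMEM arrays. The study speaks of independent experiments and biological replicates without saying how the cultures of a group were kept apart, so the p-values measure the spread between these arrays. With 3 arrays against 3, an exact permutation test cannot go below p = 0.1, and p-values here come from the fit across all genes.

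After 3 passages 247 genes passed the thresholds of the study, more than 2-fold with an unadjusted p of 0.05 or less, which is 1.2% of the genes tested. Of these, 126 were higher in ACM (0.612%) and 121 were lower (0.588%). After Benjamini-Hochberg adjustment in limma no gene (0) passed 0.05, with a smallest adjusted p of 0.376, while 995 genes (4.83%) were at an unadjusted p of 0.05 or less. The genes below are therefore called at the unadjusted threshold, and "rose" and "fell" refer to it. All 3 ACM arrays lay above all 3 DMEM arrays for 1097 genes (5.33%) and below them for 1124 genes (5.46%). The median log2 difference over all genes was 0.01. When genes were split by signal into 3 groups of equal size, 68 genes called higher were in the dimmest and 11 in the brightest. Of the genes called lower, 38 were in the dimmest and 34 in the brightest. In the dimmest group the median difference from DMEM was 0.51 for P3 ACM 1 and −0.08 for P3 ACM 2 and 3. Without P3 ACM 1, 219 genes passed (81 higher, 138 lower), of which 131 were shared in the same direction with the 247. Without P3 ACM 3, 931 passed, and without P3 DMEM 1, 444 passed, while leaving out P3 DMEM 2 gave 167. A fit of all 12 arrays with slide as a block passed 431 genes, of which 43 were shared. In that fit the P3 difference is tied together by the P1 DMEM arrays of slides 2 and 3, and so hangs on 1 P1 DMEM array of slide 3. With the deposited table's own labels, 858 genes passed, of which 2 were shared, and 50 of the 53 reported genes chosen by the naming rule had the opposite sign.

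Among called genes with a symbol whose groups did not overlap, the 12 largest falls in ACM were in genes of varied function. IGFBP5 (−2.79) and COL3A1 (−2.50) also fell but had overlapping groups, and they are given below. Levels are log2 signals after the array's own 75th percentile was set to 0. SBSPON, a secreted thrombospondin-domain protein, was at −4.28, −4.71 and −3.26 on the ACM arrays and at −0.63, −0.41 and −1.04 on the DMEM arrays. It was lower in ACM by 10.5-fold (log2 difference −3.39, SE 0.378, adjusted p = 0.376). DDC, which makes dopamine and serotonin from their amino acid precursors, was at −4.38, −4.68 and −3.81 in ACM and at −2.04, −0.41 and −0.54 in DMEM. It fell 9.78-fold (log2 difference −3.29, SE 0.448, adjusted p = 0.394). Groups that did not overlap were a condition for choosing both genes. P3 DMEM 1 was the lowest DMEM array for DDC. On slide 2 alone, P3 ACM less P1 DMEM was −1.17 for SBSPON and 0.09 for DDC. On slide 3, the P3 DMEM arrays less the single P1 DMEM array were 1.53 for SBSPON and 1.14 for DDC.

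MXRA5, a matrix remodelling protein (log2 difference −2.43), and HAPLN1, which links hyaluronan to proteoglycans (−1.89), also fell. HAPLN1 was at −4.49, −2.11 and −0.92 in ACM and at −0.83, −0.69 and −0.32 in DMEM, so P3 ACM 3 lay just below the DMEM arrays. IL17RD, an inhibitor of FGF signalling (−1.86), DIRAS3, an imprinted Ras-like growth inhibitor (−2.01), and CALB1, the calcium buffer calbindin (−1.76), fell as well. So did AQP4, the water channel of astrocytes (−1.94), TNFSF4, the OX40 ligand (−1.90), CFI, a complement inhibitor (−1.84), and SLCO2A1, a prostaglandin carrier (−1.69). Both probes of CFI gave nearly the same difference, −1.84 and −1.82, but on P3 ACM 3 it was at 1.00 against 1.24 on P3 DMEM 3. SLCO2A1 was at 0.655 on P3 ACM 3 against 0.73 on P3 DMEM 3. On slide 2 alone, P3 ACM less P1 DMEM was −0.10 for CFI, −0.03 for HAPLN1 and 0.20 for CALB1. For the other genes of this paragraph it ran from −2.24 (AQP4) to −0.58 (IL17RD).

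The 12 largest rises, chosen by the same rule, also had varied functions, and 3 of them are known from blood or endothelial cells. IL1B (3.33) rose too but had overlapping groups, and it is given below. By signal, SRGN, AKNA, CES1P2, PAQR5, C10orf90, PSG3 and PAX8-AS1 were in the dimmest of 3 groups of genes, and the other rises in the middle one. TIE1, a receptor kinase of endothelial cells, was at −0.54, −0.65 and −0.39 in ACM and at −3.34, −2.66 and −2.29 in DMEM. The 3 ACM arrays lay within a narrow range, well above DMEM, and the rise was 4.72-fold (log2 difference 2.24, SE 0.289, adjusted p = 0.394). SRGN, the proteoglycan of secretory granules in blood cells, was at −0.16, −2.03 and −2.76 in ACM and at −4.64, −4.47 and −3.30 in DMEM. Its rise of 5.62-fold (log2 difference 2.49, SE 0.647, adjusted p = 0.875) was largest on P3 ACM 1. LCP1, the actin bundler L-plastin of leukocytes, was at −0.22, −0.94 and −0.76 in ACM and at −1.74, −2.65 and −2.58 in DMEM, 3.22-fold higher. Within slide 2, P3 ACM less P1 DMEM was only 0.30 for LCP1, against 2.01 for TIE1 and 2.26 for SRGN. Microglia markers bear on these genes, since the astrocytes were a primary culture. Of 9 such markers on the array 7 were measured and none (0) passed the thresholds, with a median difference of 0.38 and the 3 ACM arrays at 0.56, 0.47 and 0.23. On slide 2 the list's median in P3 ACM less P1 DMEM was −0.02. Their summed level, in units of the 75th percentile, was 14.2 to 21.5 in ACM and 9.98 to 12.1 in DMEM. Nearly all of this sum was ITGAM, whose mean level was 4.02 in ACM and 3.34 in DMEM, all other markers being below −1.1 in both. ITGAM (0.68) and PTPRC (0.75) were higher on all ACM arrays and C1QA (−0.62) was lower on all of them, while CX3CR1 and P2RY12 were not well above background on all 6 arrays. The conditioned medium was filtered before use to remove cells and debris, and the part of other cells or of rat RNA in these rises was not tested.

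GDNF, a neurotrophic factor of the TGF-beta family, was at 0.46, 0.16 and −0.79 in ACM and at −1.43, −1.95 and −1.40 in DMEM. It rose 2.91-fold, and its second kept probe gave a log2 difference of 1.20 against 1.54. Placental hormone and glycoprotein genes rose too, CGB3 (1.84), the beta chain of chorionic gonadotropin, and PSG3 (1.62), a pregnancy-specific glycoprotein. PSG1, PSG2, PSG5 and PSG8, chosen after their values were seen, rose by 1.27 to 1.52. The CGB and PSG genes are families of near-identical copies, so their probes may share signal and they do not count as separate findings. CES1P2 (1.76) is likewise a pseudogene of CES1, which was higher by 1.08. The other rises were AKNA (1.88), PAQR5, a membrane progesterone receptor (1.68), C10orf90 (1.66), ADTRP (1.61) and PAX8-AS1 (1.53). PAQR5 and ADTRP were highest on P3 ACM 1, and without it they were at 0.90, no longer called, and 1.05. Within slide 2, P3 ACM less P1 DMEM was 0.65 to 0.85 for PAX8-AS1, C10orf90, GDNF, ADTRP and CGB3. It was 1.34 for PSG3 and PAQR5, 1.59 for CES1P2 and 2.06 for AKNA. A second probe of AKNA, C10orf90 and DDC was not well above background on all arrays. For AKNA this was the brighter probe, at a mean level of −2.21 against −4.38 for the probe used. By the probe used, AKNA was above DMEM by 0.71 on P3 ACM 1 and by 2.46 on P3 ACM 2 and 3.

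**Figure D1:**
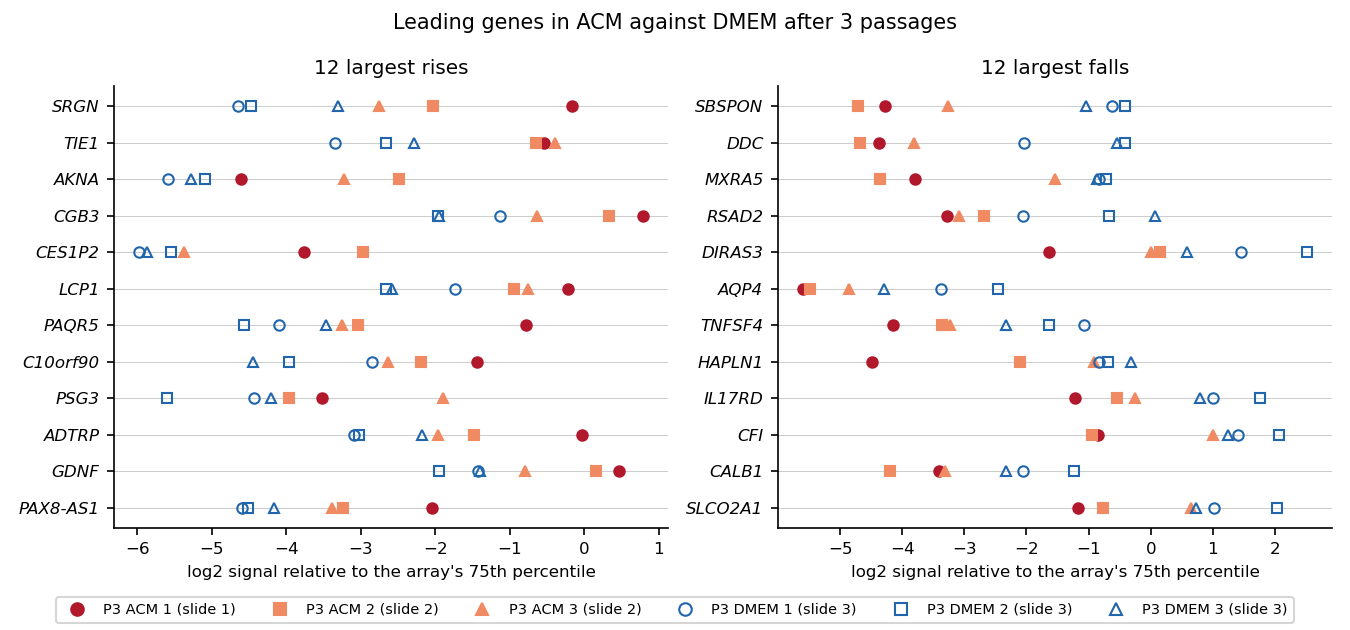
Level of the 12 largest rises (left) and 12 largest falls (right) among called genes with a symbol whose groups did not overlap, on each of the 6 arrays. Values are log2 signal above the array's 75th percentile, with filled marks for ACM and open marks for DMEM. The ACM marks of TIE1 lie close together at −0.65 to −0.39, while those of SRGN run from −0.16 on slide 1 to −2.76.

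The interferon-stimulated genes were lower in ACM as a group. Of 41 measured members 10 fell and none (0) rose, where 0.588% of all genes fell. The median difference was −0.59 against 0.01 over all genes, and 37 members were below 0. By array the median was −1.0 on P3 ACM 1, −0.85 on P3 ACM 2 and −0.37 on P3 ACM 3. RSAD2, the antiviral enzyme viperin, was at −3.28, −2.68 and −3.08 in ACM and at −2.05, −0.67 and 0.07 in DMEM. It was lower on every ACM array, 4.37-fold in all (log2 difference −2.13, SE 0.490, adjusted p = 0.830). IFIT2, which binds foreign RNA, was at −1.77, 0.00 and 0.27 in ACM and at −0.12, 2.21 and 2.48 in DMEM. Its groups overlapped at P3 DMEM 1, as did those of IFIT1, of BST2, which tethers viruses to the cell (−1.70), and of OASL, a relative of the RNA-sensing OAS enzymes (−1.57). The other called members were IFIT3 (−1.53), IFIT1 (−1.52), CMPK2 (−1.24), XAF1 (−1.23), ISG15 (−1.09) and SAMD9L (−1.04). CMPK2, a mitochondrial nucleotide kinase, had the smallest spread, at −1.80, −1.53 and −1.78 in ACM and −0.66, −0.50 and −0.23 in DMEM. The factors that drive these genes moved less and did not pass, with STAT2 at −0.34, IRF9 at −0.41 and IRF7 at −0.31.

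Several of the 10 are neighbours on a chromosome. CMPK2 and RSAD2 are adjacent among the protein-coding genes of chromosome 2, and so are IFIT2 and IFIT3 on chromosome 10, with IFIT1 2 genes further on and IFIT5 (−0.55, not called) next to it. Promoters from RefSeq (GRCh38.p14, from 250 bases before to 50 after each start) were found for 33 list members, 8 of the called ones among them. The core of the interferon-stimulated response element, TTTC and TTTC with any 2 bases between them, on either strand, occurred in 5 of these 8, in 17 of 24 members that were measured and not called, and in 4.38% of all 27305 genes with a promoter. The windows below show it in genes that fell, with each match in capitals and overlapping matches run together.
ISG15, chr1:1013364-1013419, plus strand: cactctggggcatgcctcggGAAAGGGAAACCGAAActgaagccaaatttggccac
IFIT1, chr10:89392487-89392549, plus strand: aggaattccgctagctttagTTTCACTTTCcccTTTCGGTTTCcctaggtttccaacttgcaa
IFIT3, chr10:89327821-89327904, plus strand: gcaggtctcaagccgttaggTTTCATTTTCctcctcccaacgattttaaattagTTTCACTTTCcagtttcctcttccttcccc
BST2, chr19:17405725-17405780, minus strand: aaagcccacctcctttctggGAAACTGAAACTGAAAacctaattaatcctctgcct
RSAD2, chr2:6877612-6877661, plus strand: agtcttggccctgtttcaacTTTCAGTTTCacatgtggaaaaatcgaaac
The RSAD2 match lay before the second of its 2 starts in RefSeq. ISG15, IFIT1, IFIT3 and BST2 had 2 matches each in these windows, and the nearest lay 94 to 115 bases before the start. No match of these letters was found in the windows of CMPK2, XAF1 and SAMD9L. A match is a description of the letters and not of bound factor.

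The fall of the interferon genes depended on single arrays and on slide. Without P3 ACM 1 it was 5 called members with a median of −0.50, and without P3 ACM 3 it was 16. Without P3 DMEM 2 or without P3 DMEM 3 it was 4 each, and without P3 DMEM 1, the DMEM array with the lowest levels of RSAD2, IFIT2, BST2 and OASL, it was 18. Over all 20587 genes, 138 fell without P3 ACM 1 and 333 without P3 ACM 3. Without P3 DMEM 1, 2 or 3 it was 243, 62 and 103 genes. With slide as a block in the fit of 12 arrays 1 member was called lower, where 140 of all genes were, and the median was 0.01. With the deposited table's own labels, 6 members were called higher, where 357 of all genes were, and the median was 0.57.

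**Figure D2:**
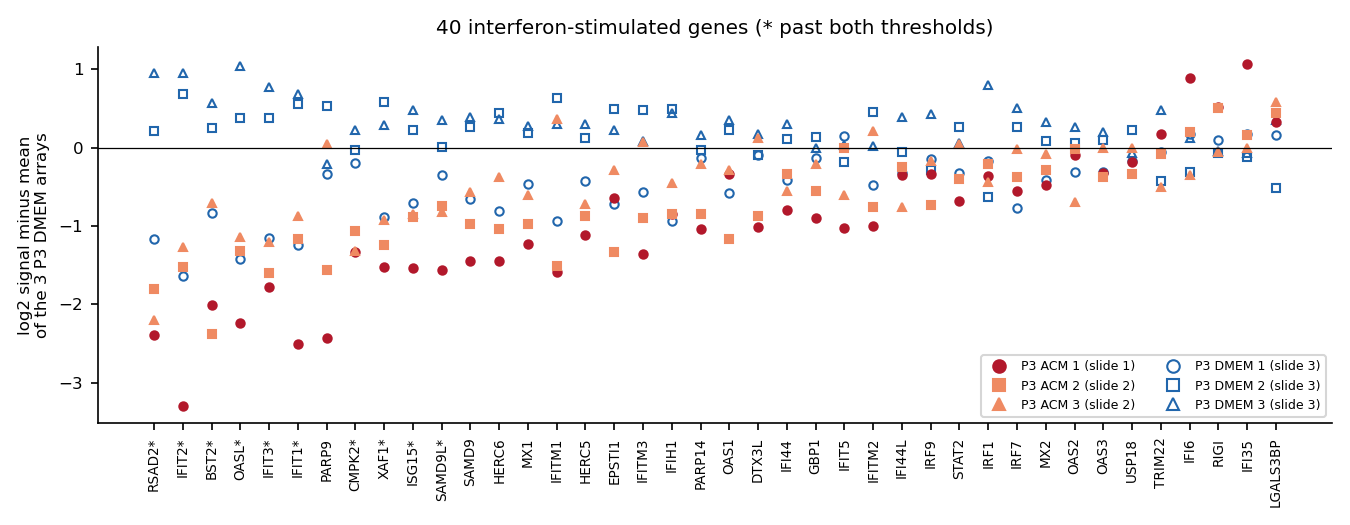
Log2 signal of 40 of the measured interferon-stimulated genes on the 6 arrays, less the mean of the 3 P3 DMEM arrays, ordered by the difference of the means. The 3 DMEM arrays spread most for the genes at the left, where P3 DMEM 1 lies below the other DMEM arrays.

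Of 10 measured genes of lipoprotein uptake and SREBP control 2 fell, where 0.588% of all genes fell. All 10 differences were below 0, the smallest being that of NPC1 (−0.0014). SREBF1, which encodes the factor SREBP-1, was at 1.20, 1.42 and 1.97 in ACM and at 2.87, 2.82 and 2.60 in DMEM, 2.35-fold lower (log2 difference −1.23, SE 0.251, adjusted p = 0.619). Its second, dimmer probe gave a difference of 0.00. With each gene as the mean of its probes, 1 member of the list was called. The median of the list was −0.47. STARD4, a sterol carrier (−0.90), and NPC2, which exports cholesterol from lysosomes (−0.69), were below DMEM on all ACM arrays without reaching 2-fold. Leaving out any of the 6 arrays gave 2 or 3 called members, and slide as a block gave 2. Over all 20587 genes, 62 to 333 were called lower with 1 array left out and 140 with slide as a block. On slide 2 alone, P3 ACM less P1 DMEM was −0.69 for SREBF1. Under the labels of the table SREBF1 was at 0.71 and the median of the list was 0.31.

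The enzymes of cholesterol synthesis did not pass the thresholds. None (0) of 20 measured was called, 17 were below 0, and the median was −0.31. HMGCS1, which makes a precursor of mevalonate (−0.92), overlapped between the groups, while MVK (−0.32) and CYP51A1 (−0.26) did not. With slide as a block 10 of the 20 fell, where 140 of all 20587 genes did, with a median of −1.31. Among 10 enzymes of fatty acid synthesis only FADS2, a desaturase of polyunsaturated fatty acids, fell (−1.41), where 0.588% of all genes fell. It was at 0.75, 1.78 and 2.24 in ACM and 2.57, 3.84 and 2.59 in DMEM, and without P3 ACM 1 its difference was −0.98 and it was no longer called. SCD, the stearoyl desaturase, was at −0.86. The fatty acid list had a median of −0.15, and 0.38 with the table's own labels. The LXR targets, which export cholesterol, had a median of 0.07 with none (0) of 6 called.

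Of 34 genes of the ATF4 response to amino acid shortage 4 fell and none (0) rose, where 0.588% of all genes fell and 0.612% rose, with a median of −0.42. TRIB3, a pseudokinase that restrains ATF4 signalling, was at 1.21, 0.73 and 1.51 in ACM and at 1.76, 1.81 and 3.17 in DMEM (log2 difference −1.10). SLC6A9, a glycine carrier, was at −0.08, −0.13 and 0.03 in ACM and at 0.94, 0.47 and 1.76 in DMEM (−1.11). NUPR1, a stress regulator of chromatin (−1.43), and DDIT4, an inhibitor of mTORC1 (−1.41), fell with overlapping groups. The groups did not overlap for ATF4 itself (−0.65) or for the cystine carrier SLC7A11 (−0.81). CHAC1, a glutathione-degrading ATF4 target, went the other way, at 0.91 with all ACM arrays above DMEM. Without P3 DMEM 3, which had the highest TRIB3, SLC6A9, NUPR1 and DDIT4, none (0) of the 34 passed, and without P3 ACM 1 there was 1. With slide as a block 5 members rose, where 291 of all 20587 genes did, and the median was 0.66. With the table's own labels the median was 0.44.

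The inflammatory cytokines separated the ACM arrays rather than the media. IL1B, the cytokine interleukin-1 beta, was at 3.45, −0.06 and −3.02 on P3 ACM 1, 2 and 3 and at −3.15, −4.31 and −2.15 in DMEM. It was high on P3 ACM 1, intermediate on P3 ACM 2 and within the DMEM range on P3 ACM 3. Its difference of 3.33 (SE 1.40, adjusted p = 0.875) passed the thresholds, and it was the only called member of 19 measured chemokines and cytokines, where 0.612% of all genes rose. Without P3 ACM 1 it was 1.67 and not called. CXCL8, the neutrophil chemokine, was at 3.27, 1.32 and −1.92 in ACM, and in DMEM at −2.07, −3.25 and 1.55. The list's median was 1.45, 0.88 and −0.43 on P3 ACM 1, 2 and 3. Without P3 ACM 3 there were 9 members called higher, where 598 of all 20587 genes were. The NF-kB feedback genes (median 0.16) and the MAPK feedback genes (0.13) had no called member. With slide as a block 4 and 3 of these genes were called higher, where 291 of all genes were, with medians of 1.23 and 0.72.

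Some genes of secreted proteins were lowest on P3 ACM 1. COL3A1, collagen III of loose connective tissue, was at −4.99, −3.40 and −0.66 in ACM and at −0.98, 0.04 and −0.60 in DMEM. IGFBP5, which binds insulin-like growth factors, was at −1.21, 0.73 and 4.30 in ACM and at 3.71, 4.88 and 3.60 in DMEM. Both passed the thresholds (−2.50 and −2.79), both lay within the DMEM range on P3 ACM 3, and neither was called without P3 ACM 1. MGP, a secreted inhibitor of calcification that was chosen after its values were seen, had the largest mean fall of any gene with a symbol (−3.41), at −1.42, −0.06 and 2.52 in ACM and 2.46, 4.92 and 3.88 in DMEM. Of 37 measured collagens, laminins and other matrix genes COL3A1 was the only one called, with 7 members below and 2 above DMEM on all ACM arrays and a median of −0.12. Over all genes 0.588% fell, and 5.46% lay below and 5.33% above DMEM on all ACM arrays. The list as a whole had no such order, with medians of −0.087, −0.23 and −0.14 on P3 ACM 1, 2 and 3. COL1A1 (−0.66), COL5A1 (−0.59), COL5A2 (−0.88) and COL12A1 (−0.72) were among the 7. Fibroblast markers, all 9 of which were well above background on every array, summed to 49.6, 71.0 and 85.4 on P3 ACM 1, 2 and 3 and to 71.7 to 97.0 in DMEM, and their part in the matrix differences was not tested.

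Calls in the lists of developmental pathways stand beside the 0.588% of all genes that fell and the 0.612% that rose. BAMBI, a decoy receptor for BMP and TGF-beta, fell (−1.33). It was at 1.08, 1.87 and 2.46 in ACM and 2.82, 3.23 and 3.33 in DMEM, and it was the only called of 17 BMP and ID genes, though at −0.96 without P3 ACM 1 and then not called. GAS1, a hedgehog co-receptor, fell by 1.49 on the log2 scale with overlapping groups, as the only called of 12 hedgehog genes. Its difference was −0.95 without P3 ACM 1 and not called, and quantile normalization, the fit of 12 arrays and slide as a random block also ended the call. With the table's own labels the hedgehog median was 0.39 against −0.29. No member was called among 17 Notch, 24 TGF-beta, 26 G1/S and 27 G2/M genes, 22 p53 targets, 23 NRF2 targets, 20 hypoxia targets or 18 glycolysis enzymes, whose medians were between −0.27 and 0.01. With slide as a block 5 hypoxia targets were called higher (median 0.45), as were 4 NRF2 targets (0.29) and 2 p53 targets, with 1 p53 target called lower. In that fit 291 of all 20587 genes were called higher and 140 lower. The difference of the 78 ribosomal protein genes depended on the normalization, and the reason was not tested. Their median was −0.35 with 45 of them below DMEM on all ACM arrays, where 5.46% of all genes were, and the median was 0.00 after quantile normalization.

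**Figure D3:**
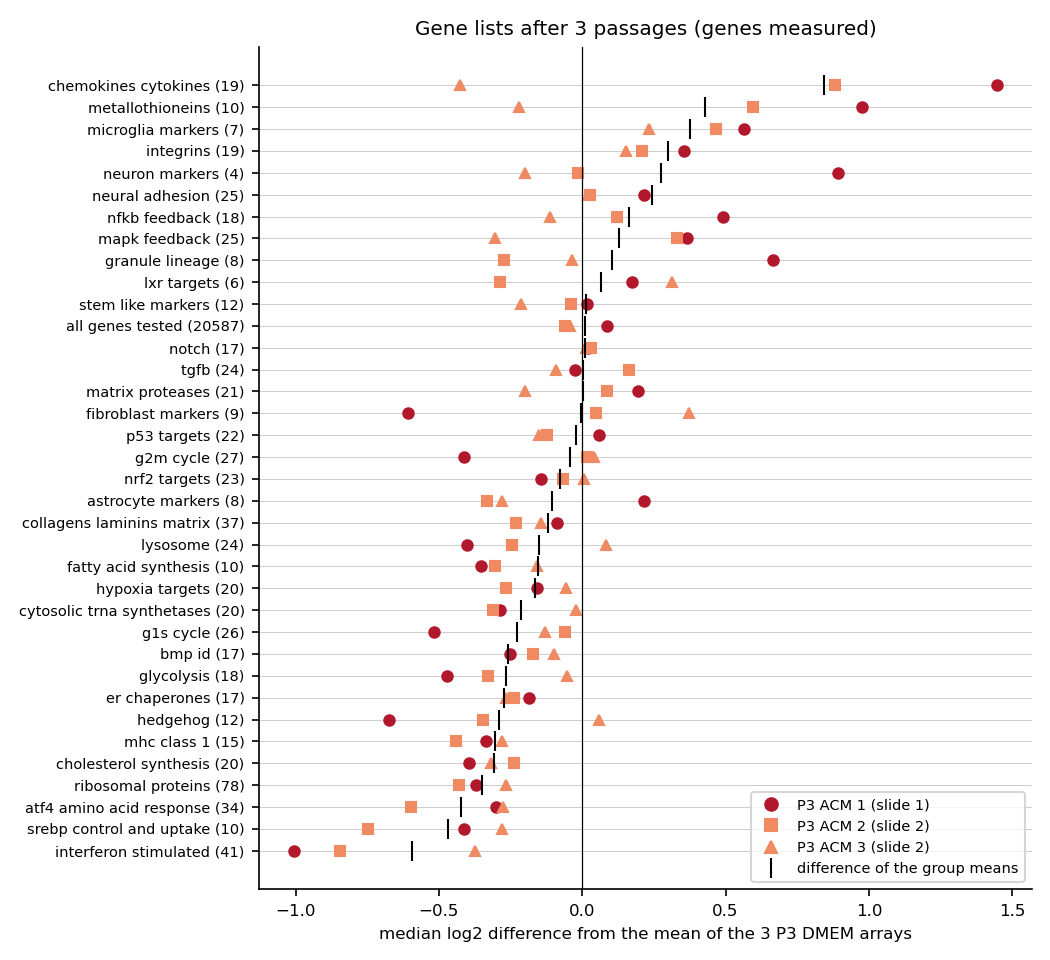
Median log2 difference of each gene list from the mean of the 3 P3 DMEM arrays, for each ACM array (coloured marks) and for the difference of the group means (black bars), with the number of genes measured in brackets. The interferon list has the lowest difference of the group means, with its arrays at −1.0, −0.85 and −0.37, and the chemokine list is spread from −0.43 to 1.45.

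Adhesion genes were the interest of the study. Of 25 measured neural adhesion genes NRXN2, a presynaptic neurexin, rose (1.40) and CDH11, a mesenchymal cadherin, fell (−1.07), with a list median of 0.24. Over all genes 0.612% rose and 0.588% fell. Without P3 ACM 1 CDH11 was at −0.67 and not called, as it was not without P3 DMEM 2 (−0.97). NRXN2 was not called without P3 ACM 2 (1.27), P3 DMEM 1 (0.95) or P3 DMEM 2 (1.31). NFASC, the axonal adhesion molecule neurofascin, was at 0.75, 0.41 and 0.49 in ACM and at −0.03, −0.27 and 0.13 in DMEM. The groups did not overlap and the difference was 1.52-fold (log2 0.60, SE 0.214, adjusted p = 0.875), under the 2-fold threshold, with 0.56 and 0.61 from its other probes. L1CAM, the adhesion molecule L1, was at −3.62, −5.25 and −5.24 in ACM and at −5.32, −5.25 and −4.95 in DMEM. NCAM2, neural cell adhesion molecule 2, was at −0.73, −2.15 and −2.29 in ACM and at −2.11, −2.23 and −1.99 in DMEM. For both genes P3 ACM 1 was above every DMEM array while P3 ACM 2 and 3 lay within the DMEM range or just under it, and the mean differences were 0.47 and 0.39. Without P3 ACM 1 they were −0.068 for L1CAM and −0.11 for NCAM2. The 3 P1 ACM arrays, which shared slide 1 with P3 ACM 1, were at −3.71 to −3.45 for L1CAM and at −0.83 to −0.68 for NCAM2. Of 19 integrins none (0) was called, and ITGA3, a laminin receptor chain, was higher on all ACM arrays (0.91).

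None (0) of 12 measured genes of the stem-like state passed the thresholds, with a median of 0.01. NES, the filament nestin (−0.04), POU5F1, which encodes Oct-4 (−0.44), SOX2 (−0.40) and FUT4, the enzyme that makes CD15 (−0.29), did not pass, and their groups overlapped. A second NES probe gave 0.68. KLF4, a pluripotency factor, had the largest difference of the list (−1.13), short of the p threshold. After quantile normalization and with slide as a block 1 member was called lower, where 131 and 140 of all 20587 genes were. PROM1, which encodes CD133, was well above background on 3 of 6 arrays and was not tested. Of 10 markers of the cerebellar granule lineage, from which many medulloblastomas arise, 8 were measured, beside 20587 of all 27708 genes. ZIC1, ZIC2, PAX6 and BARHL1 were well above background on all 6 arrays, whereas ATOH1 was so on 1 and NEUROD1 on 2. ZIC1 was dim, at a mean of −5.13 in ACM and −4.96 in DMEM. Of 11 astrocyte markers 8 were well above background on all 6 arrays, again beside 20587 of 27708 genes, whereas GFAP was so on 3. Among these 8 AQP4 was the only one called, where 0.588% of all genes fell, and their median difference was −0.11.

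P3 ACM 1 differed from the other ACM arrays in many genes. In a fit with separate means for the ACM array of slide 1 and the 2 of slide 2, 2257 genes (11%) differed by more than 2-fold with p of 0.05 or less, 2112 of them higher on slide 1 (10.3%) and 145 lower (0.704%), and 665 passed an adjusted p of 0.05. This is 1 array against 2, with the lone array assumed to vary like the others. The excess followed signal. When genes were split by signal into 3 groups of equal size, the median difference was 0.57 in the dimmest, with 1774 genes higher on slide 1, 0.06 in the middle and −0.14 in the brightest. After quantile normalization 1615 genes differed, 883 higher and 732 lower, and none (0) at an adjusted p of 0.05.

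**Figure D4:**
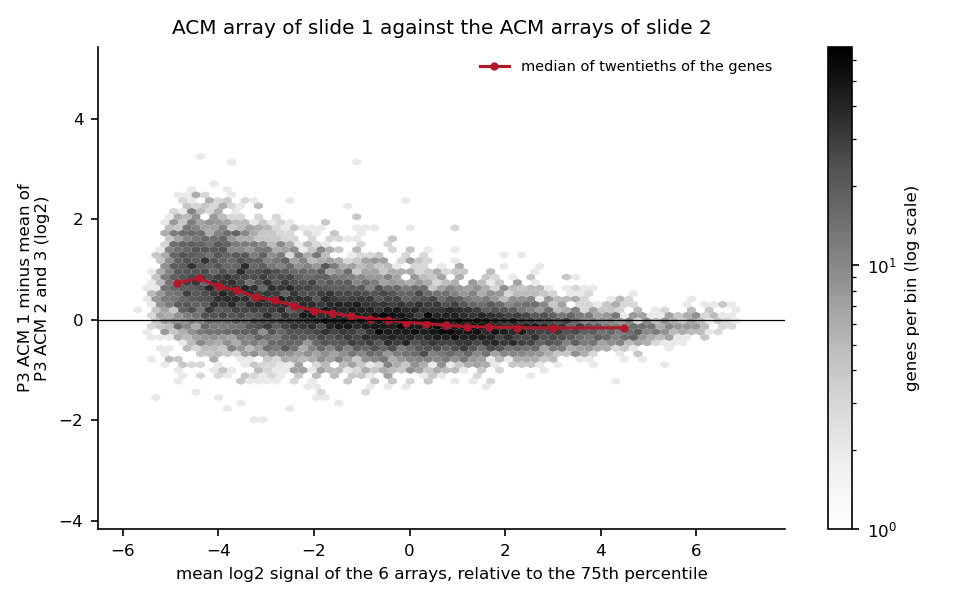
Difference of P3 ACM 1 from the mean of P3 ACM 2 and 3 for each gene, against its mean log2 signal over the 6 arrays, with shading for the number of genes and a line through medians along the signal axis. The line is well above 0 for dim genes and slightly below it for bright ones.

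By distance, P3 ACM 1 was nearest to P1 ACM arrays. The SD of the log2 difference over genes was 0.285 to 0.520 between P3 ACM 1 and the 3 P1 ACM arrays of its slide, but 0.594 and 0.824 between P3 ACM 1 and the other P3 ACM arrays. P3 ACM 2 and 3 were 0.559 apart and lay 0.408 to 0.697 from the P3 DMEM arrays. P3 ACM 3 was nearer to P3 DMEM 3 (0.417) and P3 DMEM 2 (0.467) than to either other P3 ACM array. P3 ACM 2 was nearer to P3 DMEM 1 (0.408) and P3 DMEM 3 (0.509) than to them. The slide 2 ACM arrays lay 0.352 to 0.667 from the P1 DMEM arrays of their own slide. The P3 DMEM arrays differed among themselves by 0.449 to 0.606. The distances among the ACM arrays thus overlapped those between media, which ran up to 0.916 for P3 ACM 1.

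The difference from DMEM was compared between P3 ACM 1 and the slide 2 arrays with separate controls on each side. P3 ACM 1 less P3 DMEM 1, 2 or 3 was set against the mean of P3 ACM 2 and 3 less the mean of the other DMEM arrays, across 20587 genes that are not independent. The Pearson correlations were 0.265, −0.009 and 0.192. Among genes more than 2-fold apart on slide 2, the direction on P3 ACM 1 was the same for 332 of 454 (73.1%), 196 of 313 (62.6%) and 227 of 398 (57%). The same measure between P3 ACM 2 and P3 ACM 3 was −0.128, 0.234 or 0.372, depending on the controls. Of the 126 genes called higher, P3 ACM 1 was above both slide 2 arrays for 78 and below both for 13, and of the 121 called lower it was below both for 69 and above both for 27. P3 ACM 1 was part of the means behind these calls, so the counts are no independent measure of its agreement. The same counts over all genes were not taken.

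The genes at each end of the difference between P3 ACM 1 and the slide 2 arrays are given as a description. P3 ACM 1 was highest for IL1B (slide 1 less slide 2, 4.99), RNA18SN5, an 18S ribosomal RNA (4.85), MAML3, a Notch coactivator (3.70), IL1A (3.61) and SIX6 (3.60). It was lowest for IGFBP5 (−3.72), PRDM16 (−3.11), HAPLN1 (−2.97), COL3A1 (−2.96) and RARRES2, which encodes chemerin (−2.86). Between media, a second MAML3 probe gave −0.21 against 1.00 and the second PRDM16 probe 0.37 against −1.30. IL1A was at 1.21, −1.15 and −3.66 in ACM, the same order as IL1B. Among genes with a like value on all 3 ACM arrays, chosen after their values were seen, were TIE1, RSAD2, CMPK2, SLC6A9 and DDC, whose slide 1 less slide 2 differences lay between −0.39 and −0.02.

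**Figure D5:**
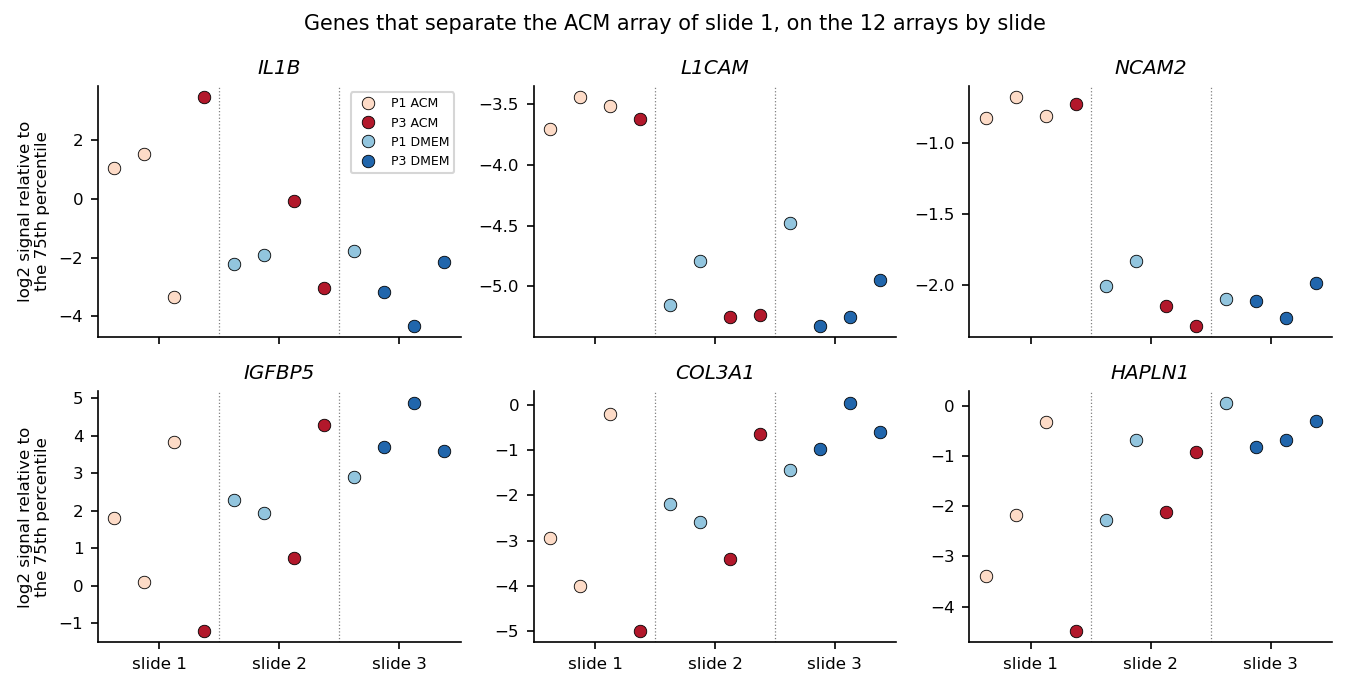
Log2 signal of 6 genes on all 12 arrays, ordered by slide and coloured by medium and passage. L1CAM and NCAM2 are high on the 4 arrays of slide 1 and low on the others, whereas IL1B, IGFBP5, COL3A1 and HAPLN1 also vary within slides.

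Whether the difference between media changed from 1 to 3 passages was tested in a fit of all 12 arrays. No gene (0) passed an adjusted p of 0.05 (smallest adjusted p = 1.00), and 802 (3.9%) were at an unadjusted p of 0.05 or less. SBSPON differed by −0.43 at P1 and −3.39 at P3 (change −2.96), DDC by 0.00 and −3.29, and CALB1 by 0.44 and −1.76, each change being at an unadjusted p of 0.05 or less. Much of it lay in DMEM, where the mean level went from −2.62 at P1 to −0.70 at P3 for SBSPON, from −3.61 to −1.0 for DDC and from −3.64 to −1.87 for CALB1. In ACM it went from −3.04 to −4.08 for SBSPON, from −3.60 to −4.29 for DDC and from −3.20 to −3.64 for CALB1. The passages lay in part on different slides, so passage and slide cannot be fully told apart. By its brighter probe SREBF1 differed by −1.01 at P1 and by −1.23 at P3, lower in ACM at both passages. At P1 the ACM arrays lay on slide 1 and the DMEM arrays on slides 2 and 3, so slide and medium cannot be told apart there either. GDNF (0.46 and 1.54) and IL17RD (−0.63 and −1.86) were also within that unadjusted threshold. The interferon list had a median of −0.40 at P1 and −0.59 at P3, and the ATF4 list −0.61 and −0.42.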

How the data were processed

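The scanner files held spot intensity values that Agilent Feature Extraction 11.0.1.1 (per the submitters' processing notes) had background-subtracted and the authors deposited without further normalization. The deposited value table held normalized log2 values, whose columns rank as the arrays of other samples, and it was used as an alternative only. The genome build is not given in the sources used here. Each array had 44495 spots, of which 1377 were controls. Control spots and outlier spots were left out, spots of a probe were averaged as log2 intensity, and each array's 75th percentile was subtracted. Probes well above background on all 6 arrays were kept (25335), and each gene was represented by its brightest kept probe. RefSeq (GRCh38.p14) named 25771 of 34127 probes (75.5%). P3 ACM and P3 DMEM were compared on the 6 arrays in R 4.3.3 by a moderated linear fit (lmFit, then eBayes, limma 3.58.1), after the script was tested on simulated data. Genes over 2-fold with p of 0.05 or less were called. The number of arrays limits the precision. Slides were read from the scanner files' identifiers.

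Named genes were the 12 largest rises and falls among called genes with a symbol and groups that did not overlap, at most 4 called members per list, genes named by the study, and the 5 genes at each end of slide 1 less slide 2. Other names in the text were chosen after their values were seen. The comparison, genes and lists were chosen with earlier results of these data known. Alternatives were quantile normalization, the percentile over kept probes, normexp (offset 50, on the median signal, as no mean signal was in the files), the value table, other filters, all 12 arrays, eBayes with trend, the methods' t-test, replicate and slide blocks, probe means and leaving out each array. Counts of called list members under these were added after seeing the data. Plots used matplotlib 3.10.9 and pandas 2.3.3. Some genes that were measured and counted in the lists are not reported here by name.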

Additional observations from a re-analysis of the deposited data

How the results depend on the processing

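The 247 genes called became 153 with normexp and quantile normalization (59 higher, 94 lower), 1168 with no filter on dim probes (968 higher, 200 lower), 107 by the methods' t-test (none, 0, after Benjamini-Hochberg), 858 in the value table under its own labels (357 higher, 501 lower), 431 with slide as a block in 12 arrays (291 higher, 140 lower) and 2712 for the ACM array of slide 1 alone (2168 higher, 544 lower). Leaving out 1 array gave 167 to 931. Quantile normalization gave 234 (103 higher, 131 lower), and slide as a random block gave 216. With the replicate number as a block 323 genes were called. Deviations from the group mean correlated at 0.385, −0.254 and 0.04 between same-numbered arrays. Among the ACM arrays replicate number is mixed with slide, so these values cannot decide whether the numbers pair the arrays. The 2257 genes that differed between the ACM arrays of slides 1 and 2 became 842 with normexp and quantile normalization and 6038 with no filter. The cause of these changes was not tested.

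Of the values of 53 named genes under alternatives, 828 kept their direction and side of the thresholds, 144 kept the direction and no longer passed, 17 newly passed and 71 changed sign, 50 of them in the value table and 14 with slide as a block. The others were of genes that were not called. With 1 array left out, L1CAM ran from −0.068 to 0.75, NCAM2 from −0.11 to 0.67, MAML3 from −0.24 to 1.71 and SIX6 from −0.15 to 2.21, each lowest without P3 ACM 1. NES ran from −0.28 to 0.16 and was at 0.32 as the mean of its probes.

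Under the labels of the value table the log2 differences were, for genes higher in ACM in the scanner files, SRGN −0.39, TIE1 −0.54, CGB3 −0.63, LCP1 −0.72, PAQR5 −0.80, C10orf90 −0.65, PSG3 −1.36, ADTRP −0.57, GDNF −0.32, PAX8-AS1 −0.035, IL1B −1.77, L1CAM −1.06, NCAM2 −1.21, RNA18SN5 −3.41, MAML3 −2.89, SIX6 −2.69, NFASC −0.47 and IL1A −0.90. For genes lower in ACM in the scanner files they were SBSPON 1.39, DDC 2.19, MXRA5 0.65, RSAD2 1.49, DIRAS3 0.68, AQP4 1.49, TNFSF4 1.19, HAPLN1 1.12, IL17RD 1.18, CFI 0.94, CALB1 1.04, SLCO2A1 0.33, NUPR1 0.93, DDIT4 1.58, SLC6A9 0.92, TRIB3 0.86, BAMBI 0.68, COL3A1 1.34, FADS2 0.86, GAS1 0.59, IFIT2 1.91, BST2 0.86, OASL 0.86, CDH11 0.42, SREBF1 0.71, IGFBP5 0.94, NES 0.14, POU5F1 0.62, SOX2 0.89, FUT4 0.62, PRDM16 1.61 and RARRES2 1.08. With slide as a block C10orf90 was at −0.19, HAPLN1 at 0.64, NUPR1 at 1.24, DDIT4 at 2.53, SLC6A9 at 0.50, TRIB3 at 1.97, IFIT2 at 1.18, BST2 at 0.29, OASL at 0.92, NCAM2 at −0.28, POU5F1 at 0.90, FUT4 at 0.10, MAML3 at −1.20 and PRDM16 at 2.21.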
